A study of Mus musculus with 15 samples.

Results

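The genes described here are the histone genes of the Hist1, Hist2, Hist3 and Hist4 clusters, followed in polyadenylated RNA of mouse jejunal epithelial cells. They were taken by symbol: all protein-coding genes of the GENCODE M21 annotation whose symbol starts with Hist1h, Hist2h, Hist3h or Hist4, which gave 67 of 52844 genes. The 67 genes comprise 6 linker H1, 18 H2a, 18 H2b, 12 H3 and 13 H4 genes, and 54 of them lie in the Hist1 cluster on chromosome 13. Reads were found for 64 of them, and 43 of the 67 had enough reads to be tested. The 24 genes that were not tested held 0.68% of all histone counts.

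All mice were of the Collaborative Cross strain CC027/GeniUnc, and each of the 5 groups had 3 mice. Mice of 4 groups were sensitized by gavage with peanut extract, weekly with 2 mg for 3 weeks and then with 5 mg in week 4. One of these groups was left unchallenged and is called sensitized here, and the other groups received 12 mg of peanut extract by gavage and were killed 30, 60 or 120 min later. The fifth group, called PBS, had PBS in place of peanut at every dose and was not challenged. Epithelium was shaken from jejunum after 75 min with EDTA (2 mM) and DTT (0.5 mM), and RNA was sequenced as 151 bp read pairs. No mouse was given PBS first and peanut afterwards in these groups, and sensitized mice gavaged without peanut were not analysed here, so handling and time since gavage cannot be told apart from the peanut challenge. The titles give the 15 libraries different numbers, and they were taken to come from 15 mice.

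Histones package DNA into nucleosomes: H2A, H2B, H3 and H4 form the core particle, and H1 binds the DNA that links one core to the next. Most cluster histone genes are transcribed in S phase, lack introns and make mRNAs that end just after a stem-loop in place of a poly(A) tail. Some of these genes can also use a polyadenylation signal further downstream, and such transcripts are known from differentiated cells. Poly(A) selection therefore takes up the tailed transcripts and leaves most of the others behind, and the values here say nothing of the total histone mRNA of a cell. In the small intestine, cells divide in the crypts and stop dividing as they move up the villi.

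The stem-loop was searched for on the sense strand as GGNNC followed by TTTTNA and GNNCC, since it marks where the usual histone mRNA ends. It was found after the stop codon in 46 of 73 annotated transcripts of the histone genes (63.0%) and in 52 of 58727 other protein-coding transcripts (0.0885%, anywhere in the transcript). It started 21 to 58 bases after the stop codon, with a median of 31 bases. The following stretches (GENCODE M21, GRCm38, written as DNA in the sense of each gene) show the 16 bases of the match in capitals with 7 bases on each side, for 2 linker H1 genes, an H2a gene and an H4 gene to which the results return.
Hist1h1c, chr13:23739512-23739527, plus strand: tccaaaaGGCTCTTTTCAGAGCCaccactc
Hist1h1d, chr13:23555787-23555802, plus strand: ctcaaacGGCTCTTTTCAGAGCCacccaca
Hist2h2aa2, chr3:96239784-96239799, minus strand: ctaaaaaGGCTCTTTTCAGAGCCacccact
Hist1h4i, chr13:22040966-22040981, minus strand: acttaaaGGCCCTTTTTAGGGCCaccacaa
The form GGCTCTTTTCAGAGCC was shared by 26 genes of the classes H1, H2a, H2b and H3. A stem of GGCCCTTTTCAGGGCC was found in 7 genes, all of class H4. No match was found in the annotated transcripts of 23 genes, and 15 of the 73 transcripts are annotated hardly beyond the coding sequence, so their 3′ ends cannot be read from the annotation.

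The annotated transcripts of 22 histone genes ran more than 100 bases past the stem-loop, and those of another 22 genes ended within 100 bases of it. In GENCODE M21, Hist1h1c (H1.2) is annotated for 840 bases past its stem-loop and Hist1h1e (H1.4) for 1153 bases. Hist3h2a is annotated for 1643 bases past it and Hist1h1d (H1.3) for 4884 bases. RefSeq (GRCm38.p6) lists these genes, in the same order, with only 725, 782, 508 and 776 bases in all. How far a transcript runs past its stem-loop thus depends on the annotation, and the values here are those of GENCODE M21. Hist1h2bc, an H2B gene, differs from these in being annotated with an intron. Its first exon (chr13:23684199-23684621) stops 9 bases after the stop codon, the intron is 7554 bases long, and the second exon (chr13:23692176-23692908) is noncoding, so that no stem-loop is left in the spliced transcript. A polyadenylation signal (AATAAA or ATTAAA) lay in the last 40 bases of 13 of the 24 transcripts that run past the stem-loop and in 1 of the 22 that end at it, against 48.7% of other protein-coding transcripts. The signals of Hist1h1c and of Hist2h2be, an H2B gene with no stem-loop match, are shown in capitals because they mark the annotated ends of long histone transcripts.
Hist1h1c, chr13:23740342-23740347, plus strand: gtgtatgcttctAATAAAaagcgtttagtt
Hist2h2be, chr3:96223717-96223722, plus strand: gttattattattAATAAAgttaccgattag
A match describes the letters of the annotated transcript. The deposited tables give 1 count per transcript, so where along it the reads fell is not known.

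**Figure D1:**
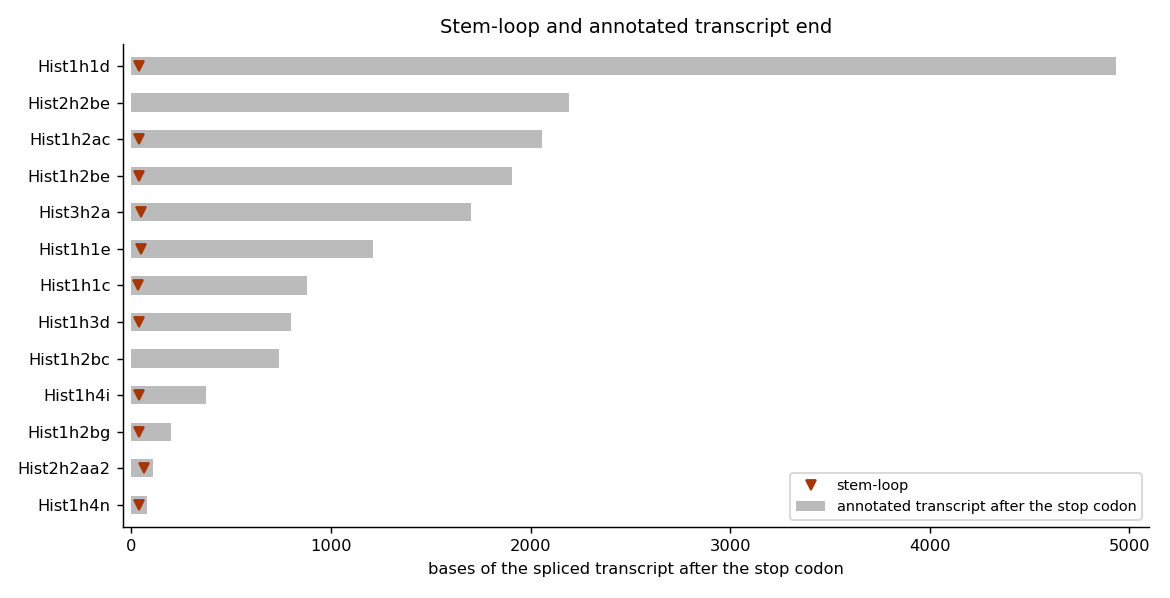
Length of the annotated spliced transcript after the stop codon (bars, in bases) for 13 histone genes, with the stem-loop as a triangle. Hist1h1d runs 4884 bases past its stem-loop, Hist2h2aa2 and Hist1h4n end close to theirs, and Hist1h2bc and Hist2h2be have none.

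Linker H1 genes and 1 H2B gene made up most of the histone reads. Between 0.0213% and 0.0765% of a library's counts fell on histone genes, which makes 137170 estimated counts over all 15 libraries. Hist1h1c took 50.26% of them and Hist1h2bc 26.65%. Their mean levels were 239 and 128 CPM (counts scaled to a common library size with TMM factors), and only 4 histone genes averaged at least 10 CPM and 26 at least 1 CPM. Per length, the order at the top was reversed: over all libraries Hist1h2bc averaged 139 TPM and Hist1h1c 125 TPM, followed by Hist2h2aa2 with 45.9 TPM, the H4 gene Hist1h4n with 13.04 TPM and Hist2h2aa1 with 6.32 TPM. On this scale Hist1h1c had 214.5 ± 37.0 TPM at 120 min, with 174 to 247 TPM in single libraries, and Hist1h2bc had 184 ± 27.7 TPM, with 154 to 209 TPM. In sensitized mice Hist1h1c had 77.7 ± 24.3 TPM (55.8 to 103.9 TPM) and Hist1h2bc 127 ± 29.4 TPM (93.8 to 149.6 TPM; SD, n = 3 each). The ranges of the 2 genes overlapped in both groups. Compared within each library, Hist1h1c was below Hist1h2bc in all 3 sensitized libraries and above it in all 3 libraries at 120 min. This order was not tested. Hist1h1d ranked 4 by counts with 17.5 CPM and averaged 2.55 TPM, since TPM is per length and its transcript is listed with 7424 bases.

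By class, H1 genes held on average 54.5% ± 7.17 of the histone counts of a library, H2b 31.2% ± 5.01, H2a 9.61% ± 2.04, H3 2.49% ± 0.85 and H4 2.28% ± 0.42 (SD over 15 libraries). On the TPM scale the H1 share was 31.2%, the H2b share 38.2% and the H2a share 19.1%. By the GENCODE M21 annotation, transcripts that run past a stem-loop held 62.3% of all histone counts. Transcripts without a stem-loop held 30.2%, mostly Hist1h2bc, and transcripts that end at a stem-loop 7.47%. Without Hist1h1c and Hist1h2bc these shares were 52.3%, 15.4% and 32.3%.

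**Figure D2:**
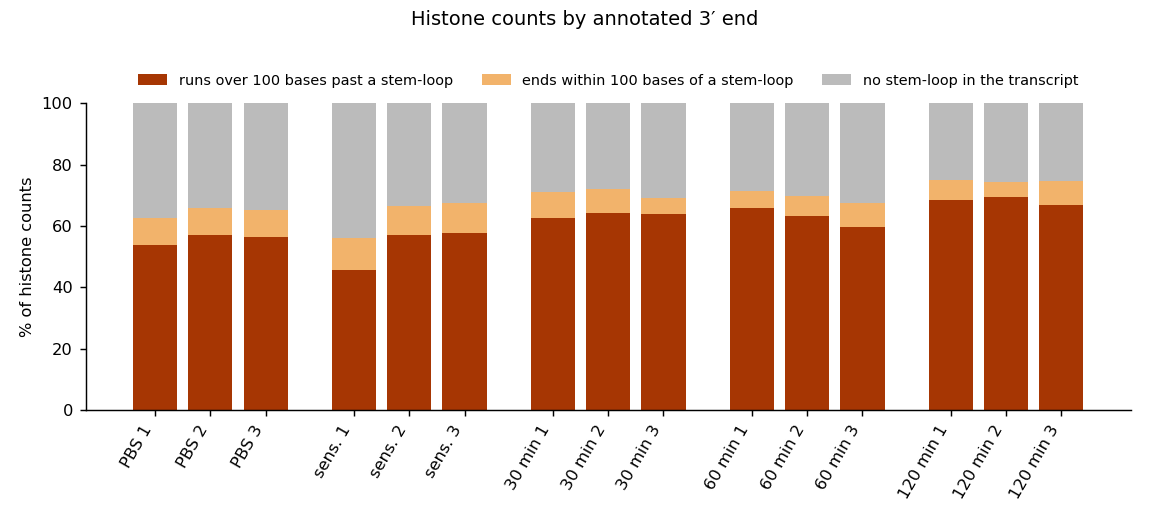
Share of histone counts (%) in each of the 15 libraries by the annotated 3′ end of the transcript. The share on transcripts that run over 100 bases past a stem-loop is 45.7% in sensitized library 1 and at most 69.4%, in 120 min library 2.

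Several histone genes share sequence, which limits what can be said of single genes. For 21 genes, at least 50% of all 151-base windows of a transcript also occur in a transcript of another gene. Hist2h2aa2 and its copy Hist2h2aa1 have 100% and 86.9% of windows shared and are also given as a sum below. Hist1h1c, Hist1h1d and Hist1h1b share no such window with another gene, and Hist1h2bc shares 17.2% of its windows with other H2b genes. Among other genes named below, Hist1h2ah shares 84.7% of its windows, Hist1h2ad 59.2%, Hist1h2bg 38.9%, Hist1h3c 15.4% and Hist1h4i 1.9%. The sources used here do not say whether reads were assigned by strand, so reads of genes on the opposite strand cannot be told apart.

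The summed histone level was highest in the 120 min group, and Hist1h1d was the gene that passed the test. The 67 genes together had 326.5, 429.8 and 413.4 CPM in sensitized mice. After challenge the sum was 443.7, 426.0 and 513.4 CPM at 30 min, then 660.7, 458.3 and 276.6 CPM at 60 min, then 745.2, 690.7 and 590.3 CPM at 120 min. All 3 libraries at 120 min lay above all sensitized libraries, while those at 30 and 60 min overlapped with them. The difference of the group means between 120 min and sensitized mice was 0.80 on the log2 scale, and it was 0.37 without Hist1h1c. The SD of the full sum within groups, pooled over all 5 groups, was 0.33 on that scale. PBS mice had 336.6, 452.2 and 411.9 CPM, in the range of the sensitized mice or close to it. In bulk samples, a gene can be higher because more cells of a type are present or because each cell holds more of its RNA, and the data cannot tell these apart.

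Hist1h1d, which encodes the linker histone H1.3, had 30.2, 28.5 and 27.9 CPM at 120 min, against 5.54, 13.03 and 12.6 CPM in sensitized mice. The lowest library at 120 min was thus above the highest sensitized one. It rose by a log2 fold change of 1.48 ± 0.28 (standard error, edgeR quasi-likelihood test, adjusted p = 0.02897, higher in 3 of 3 libraries). At the same threshold, an adjusted p under 0.05 over the 14968 genes tested, 1.26% of all genes passed at 120 min, 0.728% higher and 0.528% lower. Of the 43 tested histone genes 1 passed as higher (2.33%) and 0 as lower. Against PBS mice in place of sensitized mice the value was 1.40 (adjusted p = 0.03039). The call did not hold without 120 min library 1 or 3 or without any 1 of the sensitized libraries (log2 fold changes of 1.16 to 1.68, adjusted p of 0.06497 to 0.101), and leaving out 120 min library 2 kept it at 1.48 (adjusted p = 0.03912). It was also lost without TMM scaling, with a transcript length offset and with only both groups in the fit (adjusted p = 0.06549, 0.05237 and 0.05813), and it held in DESeq2 (adjusted p = 9.094e-05) and limma-voom (adjusted p = 0.02222). DESeq2, run on all 28797 genes with any count, 64 of them histone genes, called 779 genes at 120 min. With all libraries edgeR called 188 of 14968. Without 120 min library 1 or 3 edgeR called 12 or 13 of all genes, and without library 2 it called 240. Without sensitized library 1, 2 or 3 it called 12, 16 or 7 of all genes. Hist1h1d had 12.7, 18.5 and 16.8 CPM at 30 min and 26.6, 16.2 and 21.04 CPM at 60 min. At 60 min all libraries were above the sensitized ones, with a log2 fold change of 1.04 ± 0.28 that did not pass in edgeR (adjusted p = 0.2183) and passed in DESeq2 (adjusted p = 0.02989).

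Hist1h1c, which encodes H1.2, had 425, 405 and 320 CPM at 120 min, against 111, 192 and 191 CPM in sensitized mice. The groups did not overlap, and the log2 fold change was 1.22 ± 0.35, past the threshold in DESeq2 (adjusted p = 0.004867) but not in edgeR (adjusted p = 0.1019). Hist1h1c had 224.5, 214.4 and 275.2 CPM at 30 min, all above the sensitized libraries (log2 fold change 0.53 ± 0.34, adjusted p = 0.9813). At 60 min its libraries were furthest apart, with 354, 237 and 107 CPM (0.50 ± 0.34, adjusted p = 0.5734).

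The remaining linker genes were far less abundant. Hist1h1b, the gene of H1.5, had 3.30, 3.09 and 3.24 CPM at 120 min, against 0.769, 1.83 and 0.494 CPM in sensitized mice, again without overlap. Its log2 fold change of 1.62 ± 0.53 did not pass in edgeR (adjusted p = 0.1348) and passed in DESeq2 (adjusted p = 0.04564). Hist1h1e had 8.10, 10.5 and 7.80 CPM at 120 min and 5.48, 10.1 and 7.13 CPM in sensitized mice, with overlap and a log2 fold change of 0.21 ± 0.29. Hist1h1a averaged 0.651 CPM, with a log2 fold change of 0.41 ± 0.56, and Hist1h1t, known as the testis form, was below testing with 7 counts in all. All 5 tested linker genes had positive fold changes at each of the 3 times, with medians of 0.53 at 30 min, 0.57 at 60 min and 1.22 at 120 min, where the medians of all genes were 0.0070, -0.020 and -0.0069. The 3 times share the same sensitized libraries, so these signs are not independent of each other.

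**Figure D3:**
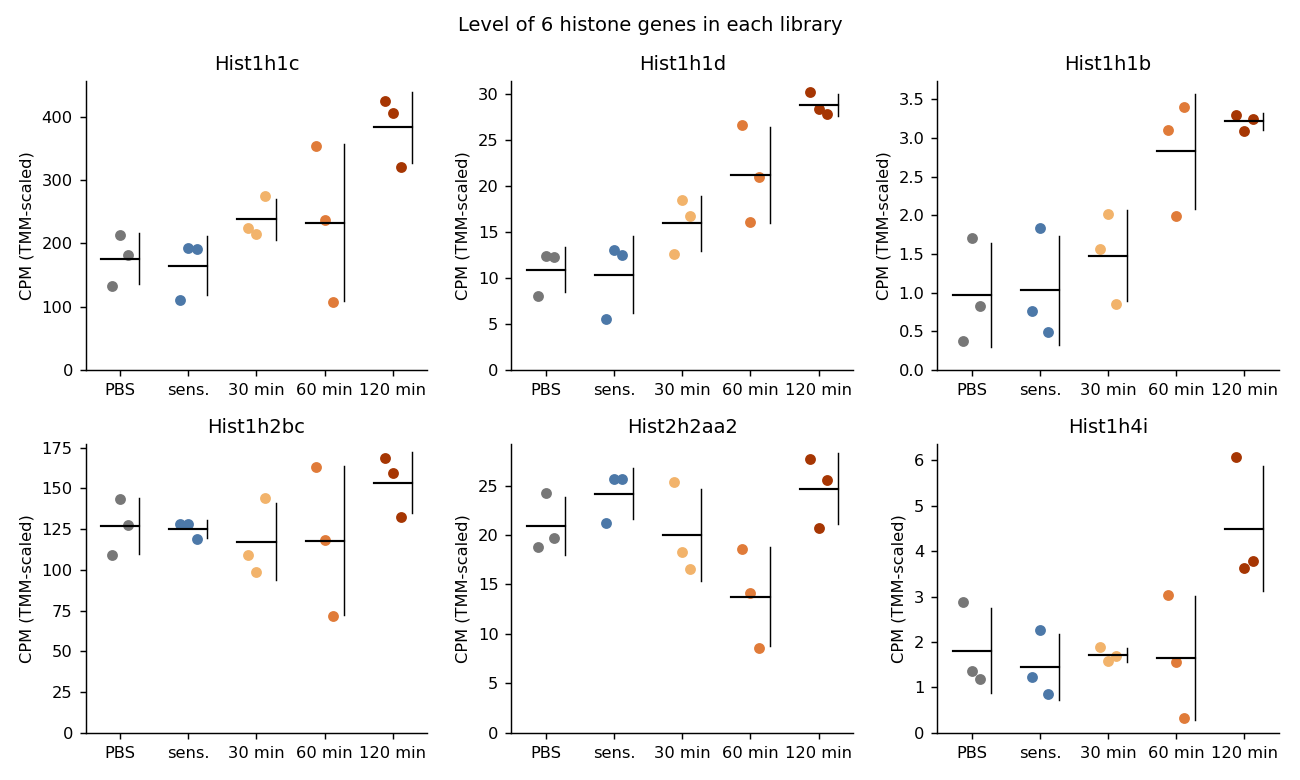
CPM of 6 histone genes in each library (points), with the group mean (horizontal line) and SD (vertical line, n = 3), from PBS and sensitized mice to 30, 60 and 120 min after challenge. Hist1h1c and Hist1h1d lie above all sensitized libraries at 120 min, and Hist2h2aa2 lies below them at 60 min.

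The windows around the starts of these genes share letters. RefSeq (GRCm38.p6) gave a window from 250 bases before to 50 after the start for 62 of the 67 genes. The window matched to Hist1h2ap (chr13:21810117-21810416, plus strand) is that of Hist1h2ao and was counted for both genes. GENCODE M21 places Hist1h2ap elsewhere, at chr13:21833026-21833507 on the minus strand. CCAAT on either strand was in 85.5% of the 62 genes and in 37.9% of all 27025 promoter windows. TATAAA on the sense strand was in 48.4% and in 8.88%. AAACACA, known as the H1 box, was found on either strand in 5 of 6 linker H1 genes, in 4 of 56 genes of other classes and in 7.14% of all windows. The windows of the pair of H1 genes with the most counts are shown with these matches in capitals, because both lay above all sensitized libraries at 120 min.
Hist1h1c, chr13:23738557-23738856, plus strand: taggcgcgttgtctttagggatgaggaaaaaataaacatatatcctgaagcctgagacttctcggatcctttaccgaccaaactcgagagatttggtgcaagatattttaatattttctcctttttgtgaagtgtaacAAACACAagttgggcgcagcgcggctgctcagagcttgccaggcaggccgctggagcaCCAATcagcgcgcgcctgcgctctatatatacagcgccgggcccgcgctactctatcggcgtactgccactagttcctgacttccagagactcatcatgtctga
Hist1h1d, chr13:23554782-23555081, plus strand: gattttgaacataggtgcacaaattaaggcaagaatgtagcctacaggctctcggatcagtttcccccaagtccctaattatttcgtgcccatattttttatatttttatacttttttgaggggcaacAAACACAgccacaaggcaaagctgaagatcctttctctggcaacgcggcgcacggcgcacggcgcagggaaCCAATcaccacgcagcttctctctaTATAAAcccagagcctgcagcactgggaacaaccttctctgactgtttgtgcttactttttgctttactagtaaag
Counted from the RefSeq start, AAACACA begins at -112 in Hist1h1c and at -122 in Hist1h1d, and CCAAT at -54 and at -51. In Hist1h1e, whose 120 min libraries overlapped with the sensitized ones, AAACACA begins at -115 and CCAAT at -52. In GENCODE M21, Hist1h1d starts at chr13:23553262, upstream of the whole window shown, so the window lies inside that transcript. A match describes letters in these windows and no binding was measured.

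Hist1h2bc, the second gene by counts, had 169, 160 and 132 CPM at 120 min, against 128, 128 and 119 CPM in sensitized mice, a log2 fold change of 0.30 ± 0.23 that did not pass (adjusted p = 0.5295). The ratio of Hist1h1c to Hist1h2bc counts within a library was chosen after the data were seen and was not tested. It was 1.22, 1.481 and 1.429 in PBS mice and 0.865, 1.498 and 1.604 in sensitized mice. Among challenged mice it was 2.054, 2.173 and 1.912 (30 min), 2.171, 1.996 and 1.491 (60 min) and 2.52, 2.54 and 2.416 (120 min). All libraries at 30 and 120 min lay above every unchallenged one, while 60 min library 3 did not. The share of linker H1 genes in the histone counts was 44.7%, 51.99% and 49.98% in PBS mice and 37.7%, 50.7% and 51.1% in sensitized mice. Among challenged mice it was 56.4%, 57.6% and 58.5% (30 min), 60.3%, 57.03% and 52.2% (60 min) and 62.8%, 64.8% and 60.9% (120 min). By counts, the lowest challenged library was just above the highest unchallenged one. By TPM this separation did not hold, since the H1 share was 27.25% in 60 min library 3 and 28.98% in sensitized library 3.

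**Figure D4:**
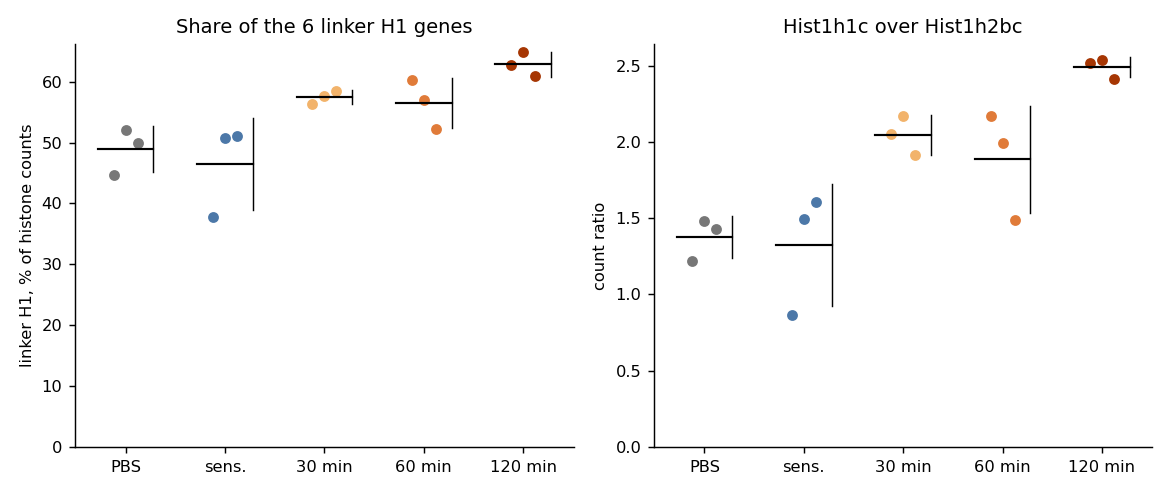
Share of the 6 linker H1 genes in the histone counts (left, %) and ratio of Hist1h1c to Hist1h2bc counts (right) in each library (points), with the group mean (horizontal line) and SD (vertical line, n = 3). The H1 share is 60.9% to 64.8% at 120 min and 37.7% to 51.1% in sensitized mice.

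Among the H2a genes, the pair Hist2h2aa1 and Hist2h2aa2 held most counts. Hist2h2aa2 had 18.6, 14.2 and 8.59 CPM at 60 min, against 21.2, 25.7 and 25.6 CPM in sensitized mice, and the groups did not overlap. The log2 fold change was -0.80 ± 0.23 and did not pass (adjusted p = 0.2359), while without 60 min library 1 it was -1.06 and passed (adjusted p = 0.03891), in a fit that called 385 of all genes against 1. Summed with its copy, the pair had 22.2, 19.1 and 12.1 CPM at 60 min and 25.7, 28.1 and 33.6 CPM in sensitized mice, still without overlap. At 120 min Hist2h2aa2 had 27.7, 20.7 and 25.6 CPM, in the range of the sensitized mice (log2 fold change 0.03 ± 0.23), and the pair had 33.1, 22.2 and 31.9 CPM. Hist3h2a had 13.6, 9.71 and 12.0 CPM at 120 min and 9.23, 11.2 and 10.2 CPM in sensitized mice (log2 fold change 0.21 ± 0.22), and Hist1h2ac had a log2 fold change of 0.61 ± 0.38 with overlapping groups. Hist3h2a shares 28% of its windows with Trim17. Hist1h2ad had 0.565, 1.17 and 0.496 CPM at 120 min, against 0.205, 0.269 and 0 CPM in sensitized mice, and no library overlapped. Sensitized mice were also below PBS mice, which had 0.272, 0.964 and 0.929 CPM. The fitted log2 fold changes of Hist1h2ad were 2.11 ± 0.78 at 120 min and -2.08 ± 0.79 for sensitized against PBS mice, on a few counts per library, and neither passed (adjusted p = 0.1772 and 1).

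Of the other H2b genes, Hist1h2bg had 3.67, 2.72 and 4.46 CPM at 120 min, against 0.974, 1.94 and 1.27 CPM in sensitized mice. The groups did not overlap, and the log2 fold change of 1.37 ± 0.38 did not pass in edgeR (adjusted p = 0.08835) and passed in DESeq2 (adjusted p = 0.02179). Hist1h2be was above all sensitized libraries at each time, with log2 fold changes of 1.06 ± 0.36, 1.37 ± 0.36 and 1.06 ± 0.36 at 30, 60 and 120 min, none of which passed (adjusted p = 0.9408, 0.2072 and 0.1423). Hist1h2be and Hist1h1e overlap on the same strand and share 151-base windows, so their counts can be split between them. Hist2h2be went the other way and had 3.91, 6.61 and 3.92 CPM at 120 min, against 7.43, 8.29 and 7.20 CPM in sensitized mice, without overlap. Its log2 fold change was -0.67 ± 0.28 (adjusted p = 0.2244), and it was the only tested histone gene whose 120 min libraries were all below the sensitized ones.

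The H3 and H4 genes were low throughout. Hist1h3d, the H3 gene with the highest mean CPM, had 3.44, 3.41 and 2.97 CPM at 120 min, against 2.15, 1.24 and 1.91 CPM in sensitized mice (log2 fold change 0.89 ± 0.35, adjusted p = 0.2036, no overlap). Hist2h3c1, Hist2h3c2 and Hist1h3e averaged 2.00, 1.37 and 1.33 CPM, and Hist2h3c1 had counts in 11 of 15 libraries, with up to 4.80 CPM. Hist1h4i had 6.07, 3.63 and 3.79 CPM at 120 min, against 1.23, 2.26 and 0.848 CPM in sensitized mice. These groups did not overlap, and the log2 fold change of 1.62 ± 0.57 did not pass (adjusted p = 0.1605). Hist1h4n, which ends at its stem-loop and shares 77.1% of its windows with Hist1h4m, had a log2 fold change of 0.89 ± 0.45 (adjusted p = 0.3175, no overlap). Hist1h4h and Hist1h4c averaged 1.07 and 1.05 CPM. The summed H4 level was 21.1, 14.1 and 13.6 CPM at 120 min and 7.33, 10.8 and 9.04 CPM in sensitized mice, while the summed H3 level was 14.03, 10.98 and 11.6 CPM at 120 min and 11.7, 7.27 and 10.5 CPM in sensitized mice.

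**Figure D5:**
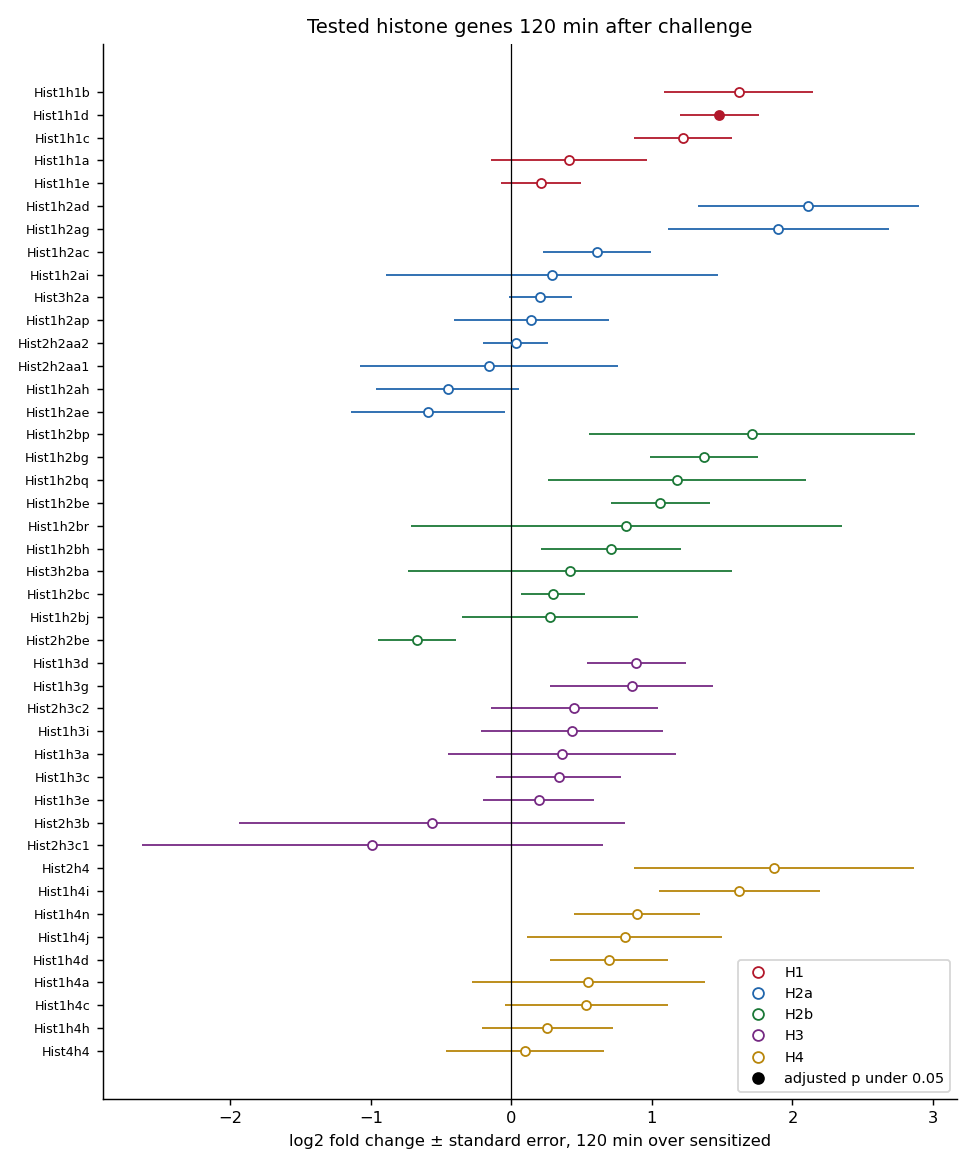
Log2 fold change ± standard error (edgeR) of the 43 tested histone genes at 120 min over sensitized mice, by class and by size within it. Hist1h1d is the filled point that passed, 37 of 43 genes lie above 0, and all 5 H1 and all 9 H4 genes do.

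Counted over the 43 tested genes, 37 had a positive fold change at 120 min, where 49.2% of all genes did. The median log2 fold change was 0.45, against -0.0069 over all genes. In 13 genes (30.2%) the 120 min libraries were all above the sensitized ones and in 1 gene (2.33%) all below, where 13.3% of all genes were above and 13.3% below. By class, 5 of 5 tested H1 genes were positive with a median of 1.22, 7 of 10 H2a genes with 0.17, 9 of 10 H2b genes with 0.76, 7 of 9 H3 genes with 0.36 and 9 of 9 H4 genes with 0.69. Many of these genes share reads and all share the same libraries, so they are not replicates of each other.

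At the earlier times no histone gene passed in edgeR. At 30 min 0 of 43 genes passed in edgeR, where 0% of all genes did. With an unadjusted p under 0.05 there were 3 genes (6.98%), where 5.04% of all genes had one. DESeq2 and limma-voom also called 0 histone genes, and 6 and 0 of all genes. The smallest p belonged to Hist1h2be, Hist1h2ad (log2 fold change 2.10 ± 0.79, adjusted p = 0.9408) and Hist1h1d (0.63 ± 0.28, adjusted p = 0.9644). In 6 genes (14.0%) the 30 min libraries were all higher and in 1 gene (2.33%) all lower, where 6.49% and 7.84% of all genes were. The median was 0.30, against 0.0070 over all genes, and 30 of 43 genes were positive, where 51.2% of all genes were.

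At 60 min 0 of 43 genes passed in edgeR, where 0.00668% of all genes did. An unadjusted p under 0.05 was found for 9 histone genes (20.9%) and for 12.6% of all genes, and DESeq2 called 1 gene, Hist1h1d, and limma-voom 0. In 7 genes (16.3%) the 60 min libraries were all higher and in 3 genes (6.98%) all lower, where 9.37% and 9.14% of all genes were. The median was 0.36, against -0.020 over all genes, with 29 of 43 genes positive, where 47.6% of all genes were. The 60 min mice differed most among themselves: library 1 had the highest histone share of all 15 libraries (0.0765% of counts) and library 3 the lowest (0.0213%). Without library 3 the summed difference at 60 min was 0.51 on the log2 scale, against 0.18 with it, and without library 1 it was -0.12. The average of the 3 times over sensitized mice gave 0 calls in edgeR, where 0% of all genes passed, 1 in DESeq2 (Hist1h1d) and 0 in limma-voom. An unadjusted p under 0.05 was found for 7 histone genes (16.3%) and for 10.5% of all genes. In 2 genes (4.65%) all challenged libraries were higher and in 0 genes all lower, where 1.18% and 1.25% of all genes were. It was led by Hist1h1d (log2 fold change 1.05 ± 0.24, adjusted p = 0.2065), Hist1h2be (1.16 ± 0.31, adjusted p = 0.2199) and Hist1h2ad (2.20 ± 0.70, adjusted p = 0.2855).

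Sensitization alone left histone transcripts without a detected difference. Sensitized and PBS mice differed by -0.037 on the log2 scale in the summed level. In edgeR 0 of 43 histone genes passed, where 0% of all genes did. An unadjusted p under 0.05 was found for 1 histone gene (2.33%) and for 1.42% of all genes. DESeq2 and limma-voom called 0 histone genes, and 7 and 0 of all genes. The 3 smallest p belonged to Hist1h2ad, Hist1h2ah (1.06 ± 0.53) and Hist1h3c (-0.83 ± 0.44), all with an adjusted p of 1. Sensitized libraries were all higher in 1 gene (2.33%) and all lower in 2 genes (4.65%), where 3.88% and 4.1% of all genes were. The median was 0.048, against 0.0068 over all genes, with 23 genes positive and 20 negative, where 51.5% of all genes were positive.

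Between times after challenge, 0 histone genes passed in edgeR in any pair, and limma-voom called 0 as well. For 120 over 60 min, 1.12% of all genes passed and 19.7% had an unadjusted p under 0.05, as did 3 histone genes (6.98%). In 6 histone genes (14.0%) the 120 min libraries were all higher and in 3 (6.98%) all lower, where 10.2% and 9.78% of all genes were. Hist2h2aa2 had the smallest p among histone genes there, with 27.7, 20.7 and 25.6 CPM at 120 min and 18.6, 14.2 and 8.59 CPM at 60 min (log2 fold change 0.84 ± 0.23, adjusted p = 0.08464), and it passed in DESeq2 (adjusted p = 0.02057). It was followed by Hist2h2be (-0.73 ± 0.28, adjusted p = 0.1746) and Hist1h4i (1.43 ± 0.57, adjusted p = 0.1859). Without 60 min library 1, 1151 of all genes passed for 120 over 60 min, against 168 with it. Of the 1151, 3 were histone genes: Hist2h2aa2 (adjusted p = 0.024), Hist1h4i (adjusted p = 0.04455) and Hist2h4 (adjusted p = 0.02834). Hist2h4 averaged only 0.297 CPM, with 89 counts in all and counts in 13 of 15 libraries. Its log2 fold change of 6.75 in this fit thus rests on few counts. For 120 over 30 min, 1.01% of all genes passed and 17.7% had an unadjusted p under 0.05, as did 7 histone genes (16.3%). In 9 histone genes (20.9%) the 120 min libraries were all higher and in 2 (4.65%) all lower, where 12.1% and 10.1% of all genes were. The smallest p belonged to Hist1h2bg (1.19 ± 0.38, adjusted p = 0.1285), Hist1h1d (0.85 ± 0.27, adjusted p = 0.1328) and Hist1h4n (1.12 ± 0.45, adjusted p = 0.2138), and DESeq2 called Hist1h1d (adjusted p = 0.04986). For 60 over 30 min, 0% of all genes passed in edgeR, and DESeq2 called 0 histone genes and 5 of all genes. An unadjusted p under 0.05 was found for 2 histone genes (4.65%) and for 4.46% of all genes. In 3 histone genes (6.98%) the 60 min libraries were all higher and in 3 all lower, where 3.19% and 3.75% of all genes were. The smallest p belonged to Hist1h2ah (-1.59 ± 0.53), Hist2h2aa2 (-0.54 ± 0.23) and Hist1h3c (0.91 ± 0.43), each with an adjusted p of 0.8631.

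Genes that make or handle histone mRNA were described beside the histone genes. For the counts of this list and those after it, 49.2% of all genes had positive fold changes at 120 min. Of 27 tested genes for histone mRNA processing, 17 had positive and 10 negative fold changes at 120 min and none passed (median 0.075). The smallest p belonged to Srrt, a cap-complex partner (0.45 ± 0.14, adjusted p = 0.1316), and to Ccne1, the S-phase cyclin E1 (0.90 ± 0.34, adjusted p = 0.1844). Slbp, which encodes the protein that binds the stem-loop, had 35.4, 37.6 and 34.9 CPM at 120 min, against 41.0, 40.6 and 39.1 CPM in sensitized mice. These groups did not overlap, and the log2 fold change of -0.16 ± 0.12 did not pass (adjusted p = 0.5224). Eri1, an exonuclease that trims the histone 3′ end, had a log2 fold change of 0.35 ± 0.18 (adjusted p = 0.3376), and Npat, an activator of histone gene transcription, one of -0.016 ± 0.19 (adjusted p = 0.978). Of 17 tested histone chaperones, 13 were positive and none passed (median 0.27), led by Hira (0.45 ± 0.15, adjusted p = 0.1335) and Supt16 (0.44 ± 0.15, adjusted p = 0.1557).

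Replication-independent histone genes lie outside the clusters and are polyadenylated as a rule. Of 10 tested genes, 8 were positive at 120 min and none passed (median 0.21). H2afz, for H2A.Z, had 133, 88.7 and 140 CPM at 120 min and 103, 94.3 and 71.5 CPM in sensitized mice (0.43 ± 0.28, adjusted p = 0.4545). H3f3b, for H3.3, had 1104, 945 and 947 CPM at 120 min and 813, 1014 and 845 CPM in sensitized mice (0.17 ± 0.26, adjusted p = 0.7951). H2afv, another H2A.Z gene, had the smallest p of the list (0.28 ± 0.14, adjusted p = 0.3292).

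Genes of the cell cycle mostly had positive fold changes. Of 30 tested S-phase genes, 28 were positive at 120 min and none passed (median 0.30), with Fen1 (0.76 ± 0.23, adjusted p = 0.1054) and Lig1 (0.44 ± 0.20, adjusted p = 0.253) at the smallest p. Pcna, the sliding clamp of DNA replication, was at 0.24 ± 0.26 (adjusted p = 0.6845). All 20 mitosis genes were positive at 30, 60 and 120 min, with medians of 0.62, 0.59 and 0.51, and none passed. An unadjusted p under 0.05 in edgeR was found for 18, 12 and 12 of them at these times. Over all genes the shares were 5.04%, 12.6% and 17.7%. Positive fold changes were found for 51.2%, 47.6% and 49.2% of all genes at these times. Cdc20 (0.74 ± 0.23, adjusted p = 0.1286) and Kif11 (0.46 ± 0.16, adjusted p = 0.1415) had the smallest p at 120 min. Mki67, a marker of dividing cells, had 133, 170.1 and 244 CPM at 120 min, against 128, 129.5 and 127 CPM in sensitized mice (0.51 ± 0.22, adjusted p = 0.2387). At 60 min Mki67 had 189, 243 and 301 CPM (0.93 ± 0.22, adjusted p = 0.1748). For sensitized against PBS mice all 20 mitosis genes were negative (median -0.35), and none passed. The part of dividing cells in the histone values was not tested.

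Other properties of the libraries also differed between 120 min and sensitized mice, and not all of them only at 120 min. The isolates may hold intraepithelial lymphocytes and other cells beside epithelium. Summed markers of leukocytes were 140, 126 and 59.6 CPM at 120 min, against 222, 198 and 462 CPM in sensitized mice. Of these 17 markers 14 were negative, with a median of -1.44, none passed and none was without counts in all libraries. Summed erythroid markers were 85.2, 87.3 and 77.5 CPM at 120 min and 125, 152 and 179 CPM in sensitized mice. At 120 min 5 of 5 were negative (median -0.91). They were lower still at 30 min, with 18.9, 29.1 and 54.3 CPM (median -2.05). Stromal and endothelial markers summed to 8.74 to 10.97 CPM at 120 min and 11.2 to 24.2 CPM in sensitized mice (6 of 8 tested negative), and to 294 CPM in 30 min library 1. Epithelial markers, with Epcam at 1258 to 1416 CPM at 120 min and 1246 to 1385 CPM in sensitized mice, were positive in 8 of 15 tested genes (median 0.025), and 2 passed for 120 over 60 min, the surface marker Krt20 (0.68 ± 0.15, adjusted p = 0.04041) and the stem cell marker Lgr5 (-1.09 ± 0.25, adjusted p = 0.04762). Mitochondrially encoded genes took 13.8%, 16.6% and 15.69% of counts at 120 min and 18.2%, 17.2% and 26.7% in sensitized mice, and 33.2% in 60 min library 3. With those genes removed before scaling, the summed histone difference at 120 min was 0.78 and Hist1h1d still passed (adjusted p = 0.02728). A list of 22 RNAs without a long poly(A) tail included the mitochondrial rRNAs mt-Rnr1 and mt-Rnr2. Its sum was highest in 60 min library 3 (14690 CPM). Of these RNAs 5 were tested, and all 5 were negative at 120 min (median -0.71). The smallest p belonged to Rn7sk (-0.89 ± 0.50, adjusted p = 0.3721) and mt-Rnr1 (-0.76 ± 0.55, adjusted p = 0.5125). The part of these cell types and of carry-over of untailed RNA in the histone values was not tested.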

How the data were processed

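Polyadenylated RNA, per the labels, was measured in 15 libraries with total estimated counts of 15661513 to 22691349. The submitters' processing notes name cutadapt 1.18, Salmon 1.2.1 and the build mm10. No annotation release is stated in those notes or elsewhere in the labels. Per the file headers, the deposited tables hold an estimated count and a TPM for each of 139058 transcripts, with its length and effective length. The libraries carry different title numbers, but no label says outright that each is a separate mouse, and p-values measure the spread between these samples. Replicate numbers follow accession order and are only names.

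Counts were summed to 52844 genes with GENCODE M21 and rounded (1115 transcripts, with 0.374% to 0.602% of counts, matched no gene). edgeR 4.0.16 in R 4.3.3 fitted all libraries with 1 mean per group (TMM scaling, filterByExpr, robust quasi-likelihood F test, 10 residual degrees of freedom, common biological coefficient of variation 0.26). Of 28797 genes with any count 14968 were tested, with Benjamini-Hochberg adjustment over all of them and a threshold of 0.05. The fit was tested on simulated data. TPM served for levels per length and was not tested. DESeq2 1.42.0 and limma-voom (limma 3.58.1) were alternatives, as were other scalings, filters, a length offset and leaving out libraries. Tables, sequences and figures were made in Python 3.11.15 with numpy 2.4.6, pandas 2.3.3 and, for plots, matplotlib 3.10.9.

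The histone genes, the lists of other genes and the comparisons were chosen with earlier results of these data known. Named are the 4 genes of each class with the highest mean CPM, every gene past the threshold, the 3 smallest p where none passed, the tested linker genes, and Hist1h1c, Hist1h2bc, Hist2h2be, Hist3h2a and Hist1h4i as known polyadenylated members. For the other lists these are genes past the threshold or else the 2 smallest p at 120 min, with Slbp, Eri1, Npat, H2afz, H3f3b, Pcna and Mki67 always. Promoter windows came from RefSeq (GRCm38.p6).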

Additional observations from a re-analysis of the deposited data

How the results depend on the processing

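No paired analysis was possible because the libraries carry no replicate numbers that groups share. For 120 min over sensitized mice, 1 of 43 tested histone genes passed. DESeq2 was run on all 28797 genes with any count, 64 of them histone genes. DESeq2 called 4, and 0 passed with total counts without TMM, with an offset for transcript length and with only the groups compared in the fit (Hist1h1d adjusted p = 0.06549, 0.05237 and 0.05813). Calls over all genes moved too, from 188 to 779 with DESeq2 and to 22, 34 and 134 under the other settings in the order given. DESeq2 also called 1 gene each for 60 min and for the mean of the 3 times over sensitized mice, for 120 over 60 min and for 120 over 30 min, where edgeR called 0. Over all genes DESeq2 called 181, 143, 881 and 793 there, and edgeR 1, 0, 168 and 151. Without the filter on low counts 1 of 64 histone genes, Hist2h2aa2, passed for 120 over 60 min, with 279 calls over all genes. Leaving out 1 library at a time gave 0 to 1 calls for 120 min and for 60 min over sensitized mice and 0 to 3 for 120 over 60 min, the highest without 60 min library 1 (1151 calls over all genes). These left-out fits with 2 libraries in a group assume the spread of the other groups. For 120 min over sensitized mice they called 7 to 240 of all genes, against 188 with all libraries.

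The summed difference at 120 min over sensitized mice was 0.371 without Hist1h1c, and 0.673 to 0.89 without 1 library. Leaving out 1 library moved the sum between -0.121 and 0.507 for 60 min over sensitized mice, between -0.368 and 0.26 for 60 over 30 min and between 0.289 and 0.917 for 120 over 60 min, each time at the limits without 60 min library 1 or 3. Class shares depended on the unit: by TPM, H1 held 31.2%, H2a 19.09%, H2b 38.18%, H3 4.08% and H4 7.46%. By counts without Hist1h1c, the classes in the same order held 12.07%, 18.48%, 60.24%, 4.75% and 4.46%. As means of the 15 library shares, a limit of 20 bases past the stem-loop put 68.15% past it and 0.44% at it, where the limit of 100 bases gave 60.78% and 7.81%. Signs near 0 turned for Hist1h2bc with total counts (0.002 at 30 min, 0.001 at 60 min) and without 30 min library 2 (0.022) or 60 min library 3 (0.185), with ranges over left-out libraries of -0.267 to 0.022 and -0.377 to 0.185, and for Hist2h2aa2 at 120 min without sensitized library 1 (-0.068) or 120 min library 1 (-0.079), within -0.079 to 0.129. The cause was not tested. Depth left 24 of the 67 genes untested.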
